A study of Mus musculus with 12 samples.

Results

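The genes described here are 44 markers of dividing cells, 16 that act at the entry into and during DNA replication (G1/S) and 28 that act in the preparation for and the course of mitosis (G2/M). They were chosen by symbol, and a gene was counted as measured where the symbol column of the probe table equalled its name. Of the 44 genes, 42 had a probe (81 probes of 46632), and 34 of these had a probe that was detected often enough to be tested (14 G1/S and 20 G2/M genes, of 14317 symbols tested in all). Mcm3 and Kif20a matched no probe by symbol and were not analysed here.

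The RNA came from femoral head cartilage of 21-day-old TS-4/5∆cat mice, which carry in-frame deletions of the catalytic domains of both Adamts4 and Adamts5, so every group lacks the activity of those enzymes. Explants were left untreated, treated with 10 ng/mL IL-1α, a catabolic cytokine, or treated with 10 µM retinoic acid, the active form of vitamin A, for 3 days. There were 4 bead arrays per treatment, 2 in batch 1 from the line named Donut and 2 in batch 2 from the line named Gertrude, so line and batch cannot be told apart. The labels put 4 hips in a well, speak of triplicate treatments and of a day in serum beforehand, whereas the methods describe 3 unpooled mice per treatment and medium without serum. Neither says how 3 mice gave 4 arrays or which arrays came from separate animals, and each test here counts 4 arrays per treatment. A p-value therefore measures the spread between these arrays, which may be technical. Cartilage RNA was present, as 10 of the 11 cartilage cell markers with a probe were detected on every untreated array and Matn3 on none. RNA of blood and marrow cells was present too. The haemoglobin genes Hbb-b1 and Hba-a1 and the granulocyte gene Mpo were detected on all 12 arrays. Their untreated means were 13.68, 13.46 and 9.95 in normalized log2 intensity.

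A cell that is to divide first licenses its replication origins by loading the Mcm2-7 helicase with the help of Cdc6 and Cdt1, then makes deoxynucleotides and copies its DNA under cyclin E and cyclin A kinases. E2F transcription factors drive the genes of that step. Cyclin B kinase, the Aurora and Polo kinases, the kinetochore and the spindle then carry the chromosomes through mitosis, and their genes are transcribed late in the cycle with Foxm1 and the complex of B-Myb and MuvB. In the femoral head of a young mouse the dividing cells include the columnar chondrocytes that lengthen the bone, and blood-forming cells where marrow is attached. The arrays measured RNA of the whole explant, so that fewer dividing cells and less RNA per cell cannot be told apart.

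All values are normalized log2 intensities, set against each other only for the same probe. A probe counted as detected on an array where its detection p was under 0.05, and the members detected per array were between 22 and 34. Over the whole array, between 13786 and 14965 probes were detected in batch 1 and between 16732 and 19485 in batch 2, where the highest number was on untreated replicate 2. Of the G1/S genes 10 (Mcm2, Mcm4, Mcm5, Mcm6, Mcm7, Rrm1, Rrm2, Tyms, Tk1 and Cdt1) and 11 G2/M genes (Mki67, Top2a, Bub1b, Plk1, Aurka, Birc5, Cdc20, Cdca8, Cenpa, Cenpe and Prc1) were above background on all 12 arrays. The other 13 tested genes were detected on 4 or more arrays. Among them Ccne2, Ccnb1, Aurkb, Mad2l1 and Tpx2 were detected in batch 2 only. The genes that were not tested were Gmnn, which encodes the Cdt1 inhibitor geminin, Ccnb2 and Ccna2, which encode mitotic cyclins, the spindle motor gene Kif11, the checkpoint kinase gene Ttk, the ubiquitin-conjugating enzyme gene Ube2c, the centrosome kinase gene Nek2 and the cytokinesis gene Racgap1. Each of their probes was at background on the 12 arrays and gave no level to compare.

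The first comparison asked what IL-1α changed against untreated explants. Of the 20 G2/M genes tested, 13 fell and 0 rose at an adjusted p under 0.05 from limma, against 15.0% of all tested genes that fell and 15.1% that rose. The median log2 fold change of the 20 genes was -0.66, and all 20 estimates were below 0, whereas the median of all tested genes was 0.01. Ccnb1 and Foxm1, both called, and Cks2, not called, were detected on no IL-1α array. They were tested only because other arrays detected them, so their direction was set in advance. At an unadjusted p under 0.05, 15 of the 20 were lower and 0 higher. Here and below, the share of all tested genes at an unadjusted p was not counted, so such counts have no like background. Among the 14 G1/S genes the median was -0.36, 5 fell (Mcm5, Mcm6, Rrm1, Rrm2 and Tk1) and 1 rose (Cdt1).

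Of the helicase subunits, Mcm5 and Mcm6 fell. The log2 intensity of Mcm5 on the untreated arrays was 8.79, 8.93, 8.58 and 8.38 (batch 1 first, as in each list of 4 values below), and with IL-1α it was 7.67, 7.76, 7.22 and 7.05. Every IL-1α array lay below every untreated array, a level 2.37-fold lower (log2 fold change -1.24, SE 0.17, adjusted p = 0.00013). Mcm6 read 8.74, 8.76, 8.27 and 8.42 untreated and 7.64, 7.86, 6.84 and 6.71 with IL-1α, again without overlap (log2 fold change -1.28, SE 0.16, adjusted p = 7.12e-05), and its second kept probe gave -1.23 (SE 0.22, adjusted p = 0.00126). For 4 arrays against 4 the smallest two-sided exact permutation p is 0.0286, and both genes reached it. Mcm2 and Mcm4 did not pass. Mcm2 was 7.21, 7.52, 7.44 and 6.88 untreated and 7.57, 7.52, 6.68 and 6.68 with IL-1α, a difference of -0.15 (SE 0.20, adjusted p = 0.607), with the IL-1α arrays of batch 1 at the top of the untreated range and those of batch 2 below it. Mcm4 differed by -0.40 (SE 0.18, adjusted p = 0.112). For Mcm7 the 2 kept probes gave different answers, -0.26 (SE 0.21, adjusted p = 0.381) for the brighter and -0.69 (SE 0.11, adjusted p = 0.000448) for the other, so a call for this gene depends on the probe.

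Of the loading factors, Cdt1 was the G1/S gene that rose. It read 7.09, 7.21, 7.95 and 7.01 on the untreated arrays and 8.01, 8.19, 7.85 and 7.74 with IL-1α, and the rise of 0.63 (SE 0.20, adjusted p = 0.0334) rested mostly on batch 1, where it was 0.96 against 0.31 in batch 2. One untreated array of batch 2 lay at the level of the treated arrays, and the call was lost under 8 of 25 alternatives, among them leaving out either untreated or either IL-1α array of batch 1. Cdc6 read 5.71, 5.78, 5.71 and 5.55 untreated and 5.52, 5.28, 5.48 and 5.28 with IL-1α, without overlap, but the difference of -0.30 (SE 0.16, adjusted p = 0.183) did not pass, and 3 of the 4 IL-1α arrays detected the gene. Pcna, the sliding clamp of the DNA polymerases, was a dim probe at 5.59, 5.73, 5.55 and 5.99 untreated and 5.63, 5.13, 5.54 and 5.13 with IL-1α, and its difference of -0.36 (SE 0.19, adjusted p = 0.171) did not pass.

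Of the 4 genes for deoxynucleotide supply 3 fell. Rrm1 encodes the large subunit of ribonucleotide reductase and read 8.63, 8.73, 8.22 and 8.16 untreated against 8.15, 8.12, 7.52 and 7.11 with IL-1α, with no overlap (log2 fold change -0.71, SE 0.12, adjusted p = 0.000817). The small subunit gene Rrm2 was 6.57, 6.60, 6.42 and 6.47 untreated and 6.50, 5.95, 5.51 and 5.11 with IL-1α. It fell by 0.75 (SE 0.17, adjusted p = 0.00654), and 1 IL-1α array of batch 1 lay within the untreated range. Tk1, which encodes the thymidine kinase of the salvage pathway, was 7.18, 7.60, 7.41 and 6.62 untreated and 6.78, 6.75, 5.87 and 5.87 with IL-1α, a level 1.84-fold lower (log2 fold change -0.88, SE 0.17, adjusted p = 0.00193), and its second probe gave -1.47 (SE 0.12, adjusted p = 1.91e-06). Thymidylate synthase (Tyms), which makes the same nucleotide from scratch, differed by -0.11 (SE 0.17, adjusted p = 0.683) and its groups overlapped. The cyclin E genes were near background, as IL-1α arrays detected neither Ccne1 nor Ccne2, and their differences were -0.14 (SE 0.15, adjusted p = 0.507) and -0.36 (SE 0.16, adjusted p = 0.109).

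**Figure D1:**
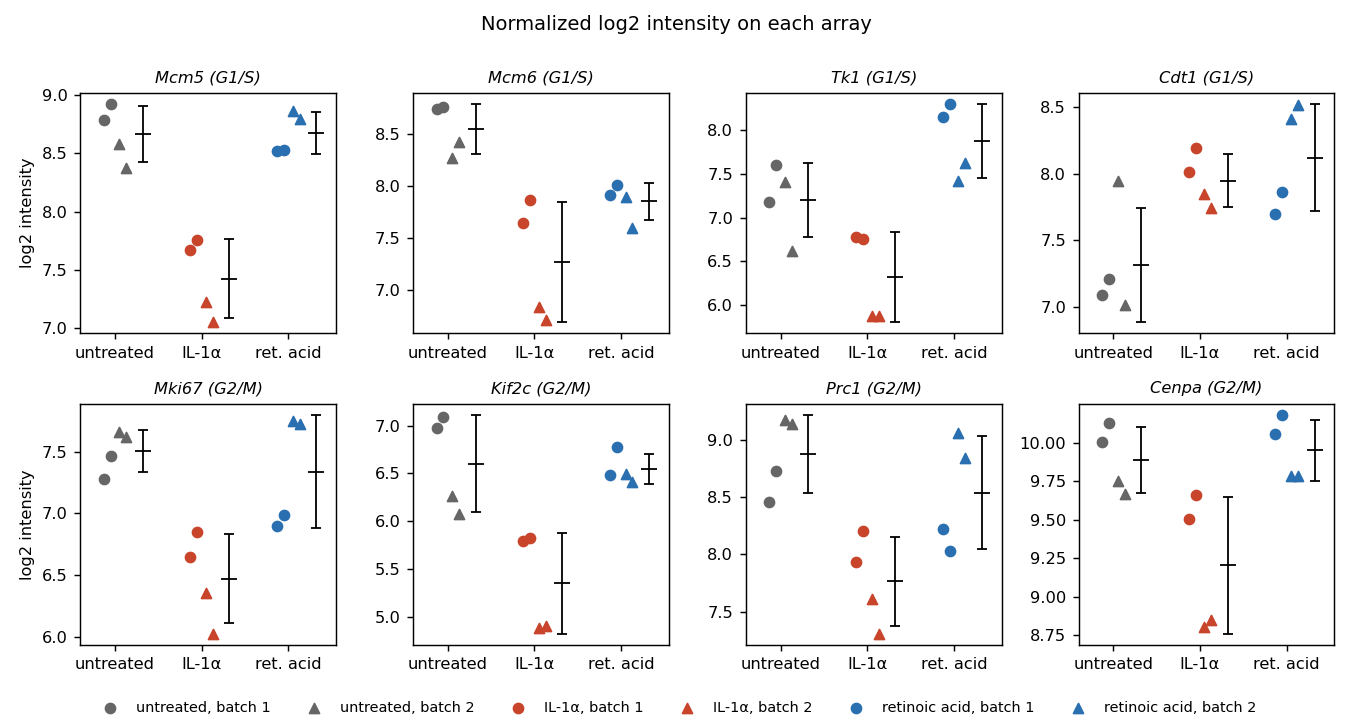
Normalized log2 intensity of 4 G1/S genes (upper row) and 4 G2/M genes (lower row) on each of the 12 arrays, by treatment, with circles for batch 1 and triangles for batch 2; the black bar is the mean of 4 arrays and its SD, and the y axes do not start at 0. The IL-1α arrays of Mcm5, Mcm6, Mki67, Kif2c, Prc1 and Cenpa lie below all untreated arrays. For Cdt1 the IL-1α arrays of batch 1 lie above all untreated arrays, and those of batch 2 lie below the highest untreated array.

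Among the G2/M genes, the proliferation marker Mki67, whose protein coats mitotic chromosomes, was 7.28, 7.47, 7.66 and 7.62 on the untreated arrays and 6.65, 6.85, 6.35 and 6.02 with IL-1α. The groups did not overlap, and the level was 2.05-fold lower (log2 fold change -1.04, SE 0.22, adjusted p = 0.00354). Top2a, the topoisomerase that separates sister DNA, was 6.24, 6.20, 7.56 and 7.62 untreated and 6.00, 6.04, 6.47 and 6.37 with IL-1α. It fell by 0.68 (SE 0.22, adjusted p = 0.0362), with -0.20 in batch 1 and -1.17 in batch 2, and the untreated arrays of batch 1 lay below the IL-1α arrays of batch 2. The call was lost under 10 of 25 alternatives, among them leaving out any 1 of the 4 untreated arrays or either IL-1α array of batch 2. Foxm1, the transcription factor of the G2/M genes, was detected on 3 untreated arrays and on 0 IL-1α arrays, so only a bound can be given, at least 1.04-fold lower (log2 fold change -0.63, SE 0.15, adjusted p = 0.00656).

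Cyclin B1 and the kinase genes Aurka and Plk1 fell. Ccnb1 was 4.65, 4.76, 6.30 and 6.70 untreated and 4.52, 4.53, 4.96 and 4.94 with IL-1α. It was detected only on the untreated arrays of batch 2 and on no IL-1α array, which makes the fall at least 1.27-fold (log2 fold change -0.86, SE 0.26, adjusted p = 0.0244). The second probe of Ccnb1 did not pass (-0.67, adjusted p = 0.0934). Aurka, the centrosomal Aurora kinase, was 6.99, 7.31, 6.95 and 7.01 untreated and 6.34, 6.65, 6.04 and 5.77 with IL-1α, a fall of 0.86 (SE 0.14, adjusted p = 0.000618) with no overlap. Plk1, the Polo kinase, fell by 0.52 (SE 0.17, adjusted p = 0.0326) with overlapping groups. Cks2, a small partner of the cyclin-dependent kinases, was near background in all 3 groups and differed by -0.13 (SE 0.14, adjusted p = 0.521).

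The chromosomal passenger complex, which corrects faulty attachments of chromosomes, contains Aurora B, survivin (Birc5) and borealin (Cdca8). Birc5 was 8.25, 7.99, 8.09 and 7.50 untreated and 7.67, 7.49, 6.69 and 6.74 with IL-1α, a fall of 0.81 (SE 0.16, adjusted p = 0.00239). Its 2 other kept probes gave -0.84 and -0.92, both called. Cdca8 fell by 0.48 (SE 0.15, adjusted p = 0.0254), and its dimmer second probe gave -0.05 (adjusted p = 0.842). Aurkb was 4.58, 4.67, 6.21 and 6.07 untreated and 5.06, 4.69, 5.17 and 4.81 with IL-1α, where 1 array of 4 detected it. Its difference over both batches was -0.45 (SE 0.33, adjusted p = 0.331), and no batch 1 array was above background.

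None of the 4 tested genes of the spindle checkpoint and its target passed. Bub1b differed by -0.54 (SE 0.20, adjusted p = 0.0563), Mad2l1 by -0.49 (SE 0.20, adjusted p = 0.0828) and Bub1 by -0.22 (SE 0.15, adjusted p = 0.289). Cdc20, the activator of the anaphase-promoting complex, read 7.53, 7.67, 7.49 and 7.14 untreated and 7.69, 8.04, 6.43 and 6.22 with IL-1α. With IL-1α both batch 1 arrays were above those untreated and both batch 2 arrays below, which left -0.36 (SE 0.26, adjusted p = 0.325). Its 2 other kept probes gave -0.00 and -0.18, and neither passed.

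Among the kinetochore and spindle genes were the largest falls of the G2/M class, those of Kif2c and Prc1. Kif2c, the kinesin that takes microtubules apart at the kinetochore, was 6.98, 7.09, 6.26 and 6.07 untreated and 5.79, 5.82, 4.88 and 4.90 with IL-1α. All IL-1α arrays were below all untreated arrays, and the level was 2.38-fold lower (log2 fold change -1.25, SE 0.16, adjusted p = 8.31e-05), although the IL-1α arrays of batch 2 were below detection. Prc1, which bundles microtubules of the anaphase spindle, was 8.46, 8.73, 9.17 and 9.14 untreated and 7.93, 8.21, 7.61 and 7.31 with IL-1α, a fall of 1.11 (SE 0.24, adjusted p = 0.00454). Cenpe, a kinetochore motor, was 7.80, 7.70, 7.32 and 7.33 untreated and 6.87, 6.93, 6.34 and 6.24 with IL-1α (log2 fold change -0.94, SE 0.17, adjusted p = 0.00132), and the centromeric histone Cenpa was 10.00, 10.13, 9.75 and 9.66 untreated and 9.50, 9.66, 8.80 and 8.85 with IL-1α (log2 fold change -0.68, SE 0.12, adjusted p = 0.00122). In each of these 3 genes the groups were apart. Nusap1, a spindle-associated protein, fell by 0.77 (SE 0.21, adjusted p = 0.0138), and Tpx2, which starts spindle assembly near chromatin, did not pass (log2 fold change -0.35, SE 0.16, adjusted p = 0.124).

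Among the 11 G2/M genes detected on all 12 arrays, 9 fell with IL-1α, and among the 10 such G1/S genes 5 fell and 1 rose. The share among all genes detected on all 12 arrays was not counted, so these counts have no like background. The 13 calls of the G2/M class became 5 when the model held treatment alone, without batch or replicate, 5 when arrays were scaled to a common median and not quantile normalized, 7 with no filter on dim probes and 8 without IL-1α batch 2 replicate 1. The falls of Mcm5, Mcm6, Mki67, Aurka, Cenpe and Kif2c were called under each alternative in which these genes could be tested, except that requiring a fold change above 2 left out Aurka and Cenpe, at 1.82-fold and 1.92-fold.

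**Figure D2:**
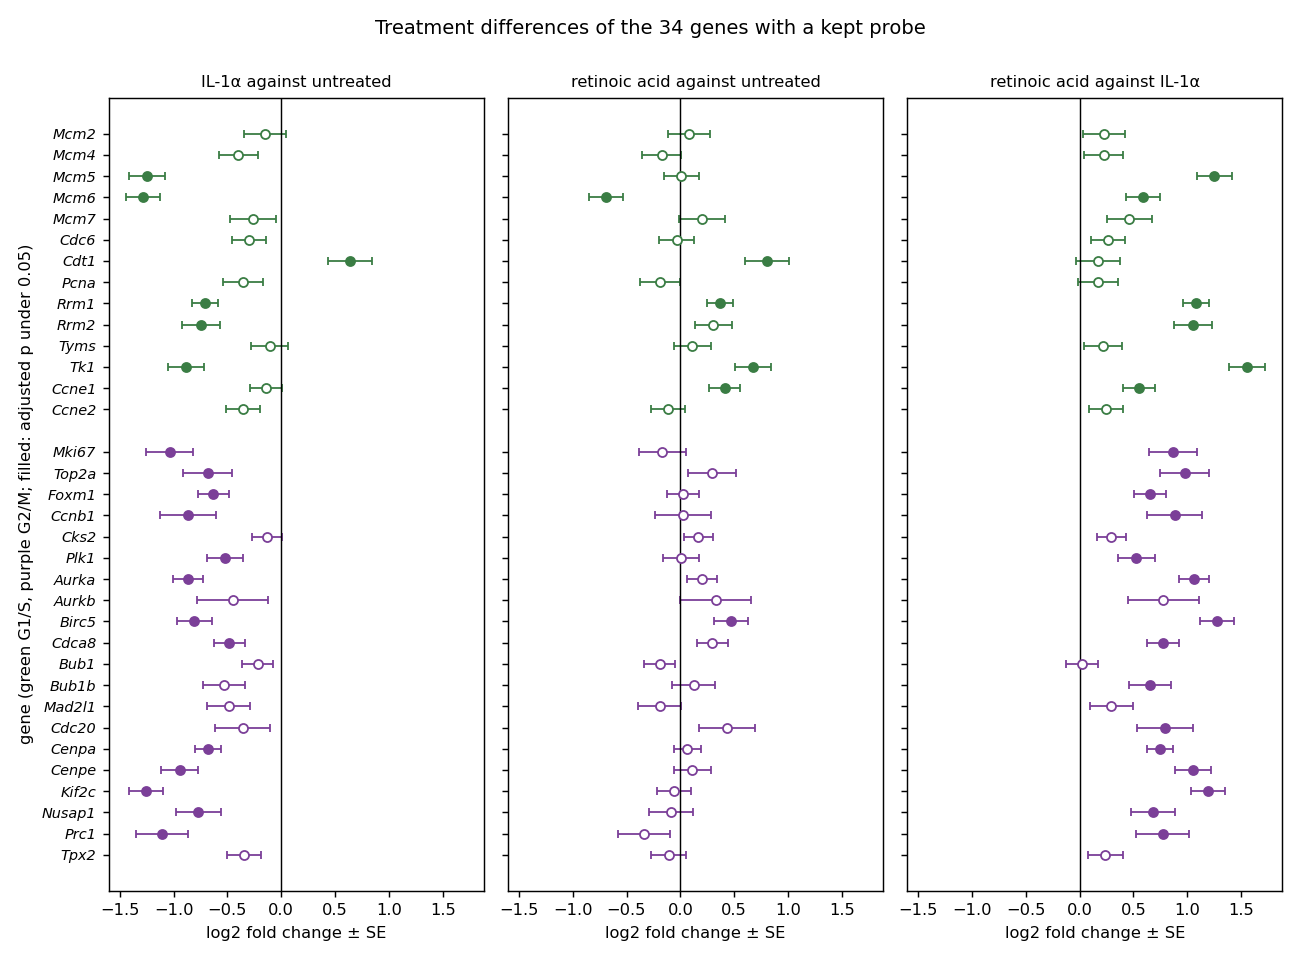
Log2 fold changes of the 34 tested genes in the 3 comparisons (x axis, points with bars of 1 SE), with G1/S genes in green above and G2/M genes in purple below; filled points have an adjusted p under 0.05. With IL-1α all 20 G2/M points lie left of 0 and 13 are filled; with retinoic acid against untreated, 1 of 20 is filled.

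Replication and mitotic genes are known for different promoter elements, E2F sites for the first and the cell cycle homology region with CCAAT boxes for the second. The stretches before the start of the 2 genes of each class with the largest fall with IL-1α, among those with a single listed start, are given here from the RefSeq promoter table of GRCm38.p6. Each is the 250 bases before the start, read 5′ to 3′ on the strand of the gene, and capitals mark the E2F letters TTTCCCGC, TTTGGCGC, TTTCGCGC or TTTGCCGC, the cell cycle homology region letters TTTGAA or TTCGAA, and the CCAAT box, on either strand, so that overlapping matches run together. Mcm6 lies on chromosome 1 (chr1:128359706-128359955, minus strand), Mcm5 on chromosome 8 (chr8:75109259-75109508, plus strand), Kif2c on chromosome 4 (chr4:117178773-117179022, minus strand) and Mki67 on chromosome 7 (chr7:135716380-135716629, minus strand).
Mcm6: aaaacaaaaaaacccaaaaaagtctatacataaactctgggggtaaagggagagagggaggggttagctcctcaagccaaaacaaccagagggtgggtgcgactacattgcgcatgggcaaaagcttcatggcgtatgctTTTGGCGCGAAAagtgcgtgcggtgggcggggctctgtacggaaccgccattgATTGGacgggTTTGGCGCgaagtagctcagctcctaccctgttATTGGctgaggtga
Mcm5: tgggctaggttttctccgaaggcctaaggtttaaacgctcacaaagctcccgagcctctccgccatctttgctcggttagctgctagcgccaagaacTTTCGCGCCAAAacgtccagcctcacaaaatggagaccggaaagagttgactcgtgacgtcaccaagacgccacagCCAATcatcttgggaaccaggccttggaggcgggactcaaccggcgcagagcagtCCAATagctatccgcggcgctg
Kif2c: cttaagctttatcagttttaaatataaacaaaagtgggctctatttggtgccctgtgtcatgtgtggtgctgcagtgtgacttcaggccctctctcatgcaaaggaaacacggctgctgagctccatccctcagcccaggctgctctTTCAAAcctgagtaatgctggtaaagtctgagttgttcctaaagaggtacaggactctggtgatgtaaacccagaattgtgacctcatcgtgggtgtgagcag
Mki67: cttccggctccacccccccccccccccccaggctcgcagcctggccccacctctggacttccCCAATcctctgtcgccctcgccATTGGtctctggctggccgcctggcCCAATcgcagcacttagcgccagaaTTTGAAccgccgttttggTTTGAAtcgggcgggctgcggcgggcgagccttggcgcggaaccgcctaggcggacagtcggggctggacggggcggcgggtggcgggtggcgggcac
The Mcm6 stretch held 3 E2F matches, 2 of them overlapping, and 2 CCAAT boxes, and the Mcm5 stretch held 2 overlapping E2F matches and 2 CCAAT boxes. In Kif2c there was 1 match to the homology region and in Mki67 there were 2, with 3 CCAAT boxes in Mki67 and 0 in Kif2c.

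Over the whole window of 300 bases, from 250 before to 50 after the start, 36 of the 44 genes had an entry in the table, and a gene with several starts counted once. E2F letters were found in 6 of 13 G1/S genes (46.2%; Mcm3, Mcm5, Mcm6, Mcm7, Cdc6 and Cdt1) and in 0 of 23 G2/M genes, against 2.6% of 27025 genes in the table. The homology region letters were in 16 of 23 G2/M genes (69.6%) and 2 of 13 G1/S genes (15.4%), against 21.7% of all genes. CCAAT boxes were in 19 of 23 G2/M genes (82.6%) and 8 of 13 G1/S genes (61.5%), against 41.1% of all. Of the 5 tested G1/S genes with E2F letters, Mcm5 and Mcm6 fell with IL-1α, Cdt1 rose, and Mcm7 and Cdc6 did not pass. A match is a description of letters and was not tested as a site.

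The next comparison asked what retinoic acid changed against untreated explants. Of the 20 G2/M genes 1 rose (Birc5) and 0 fell, against 18.6% and 18.1% of all tested genes, and their median log2 fold change was 0.04 (all genes 0.01). Of the 14 G1/S genes 4 rose (Cdt1, Tk1, Ccne1 and Rrm1) and 1 fell (Mcm6), with a median of 0.09. At an unadjusted p under 0.05 the G2/M count was also 1 higher and 0 lower (limma). These counts do not show that the other genes did not change, and the SE of the G2/M differences ran from 0.12 to 0.33.

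Cdt1 rose most, to 7.70, 7.86, 8.41 and 8.51 (log2 fold change 0.81, SE 0.20, adjusted p = 0.0077), and read above its own batch's untreated arrays on each retinoic acid array. Tk1 rose to 8.15, 8.30, 7.42 and 7.63 (log2 fold change 0.67, SE 0.17, adjusted p = 0.00726), although its second probe gave 0.07 (SE 0.12, adjusted p = 0.671). Rrm1 reached 9.05, 9.14, 8.53 and 8.48, a rise of 0.37 (SE 0.12, adjusted p = 0.0297). Rrm2 was 7.03, 6.81, 6.75 and 6.70, above every untreated array, but its difference of 0.31 (SE 0.17, adjusted p = 0.199) did not pass. Cyclin E1 (Ccne1), the G1/S partner of Cdk2, read 4.88, 5.31, 5.28 and 5.06 untreated and 5.75, 5.54, 5.30 and 5.56 with retinoic acid, a rise of 0.41 (SE 0.15, adjusted p = 0.0442) that was lost under 13 of 23 alternatives. Mcm6 was the G1/S gene that fell, to 7.91, 8.01, 7.89 and 7.60, below every untreated array (log2 fold change -0.69, SE 0.16, adjusted p = 0.00397), and its second probe gave -0.75 (SE 0.22, adjusted p = 0.0188). Mcm5 was close to untreated (8.52, 8.53, 8.86 and 8.79, log2 fold change 0.01, SE 0.17, adjusted p = 0.974). For Mcm7 the brighter probe did not pass (0.20, SE 0.21, adjusted p = 0.505). Its second kept probe was called higher (0.30, SE 0.11, adjusted p = 0.0433).

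Birc5 was 8.60, 8.69, 8.08 and 8.33 with retinoic acid, a rise of 0.47 (SE 0.16, adjusted p = 0.0364) that its 2 other probes shared at 0.68 and 0.56, both called. Mki67 was 6.90, 6.99, 7.74 and 7.72, below the untreated arrays in batch 1 and above them in batch 2 (log2 fold change -0.17, SE 0.22, adjusted p = 0.595). Top2a was 6.47 and 6.16 in batch 1 and 8.16 and 8.0 in batch 2 (log2 fold change 0.29, SE 0.22, adjusted p = 0.348), and Ccnb1 4.69, 4.61, 6.40 and 6.78 (log2 fold change 0.02, SE 0.26, adjusted p = 0.962). Cdc20 was 7.83, 7.90, 7.85 and 7.97, above every untreated array, but its difference of 0.43 (SE 0.26, adjusted p = 0.22) did not pass, nor did those of its other probes. Pcna was 5.40, 5.14, 6.14 and 5.44 (log2 fold change -0.19, SE 0.19, adjusted p = 0.48) and Mcm2 7.10, 7.44, 7.32 and 7.51 (log2 fold change 0.08, SE 0.20, adjusted p = 0.792). Both overlapped the untreated range. The 1 G2/M call became 0 without any of 5 single arrays (untreated batch 1 replicates 1 and 2, untreated batch 2 replicate 2, retinoic acid batch 1 replicate 2 and batch 2 replicate 2), and the 5 G1/S calls became 3 without untreated batch 1 replicate 1 or 2 or retinoic acid batch 1 replicate 1 or batch 2 replicate 2.

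**Figure D3:**
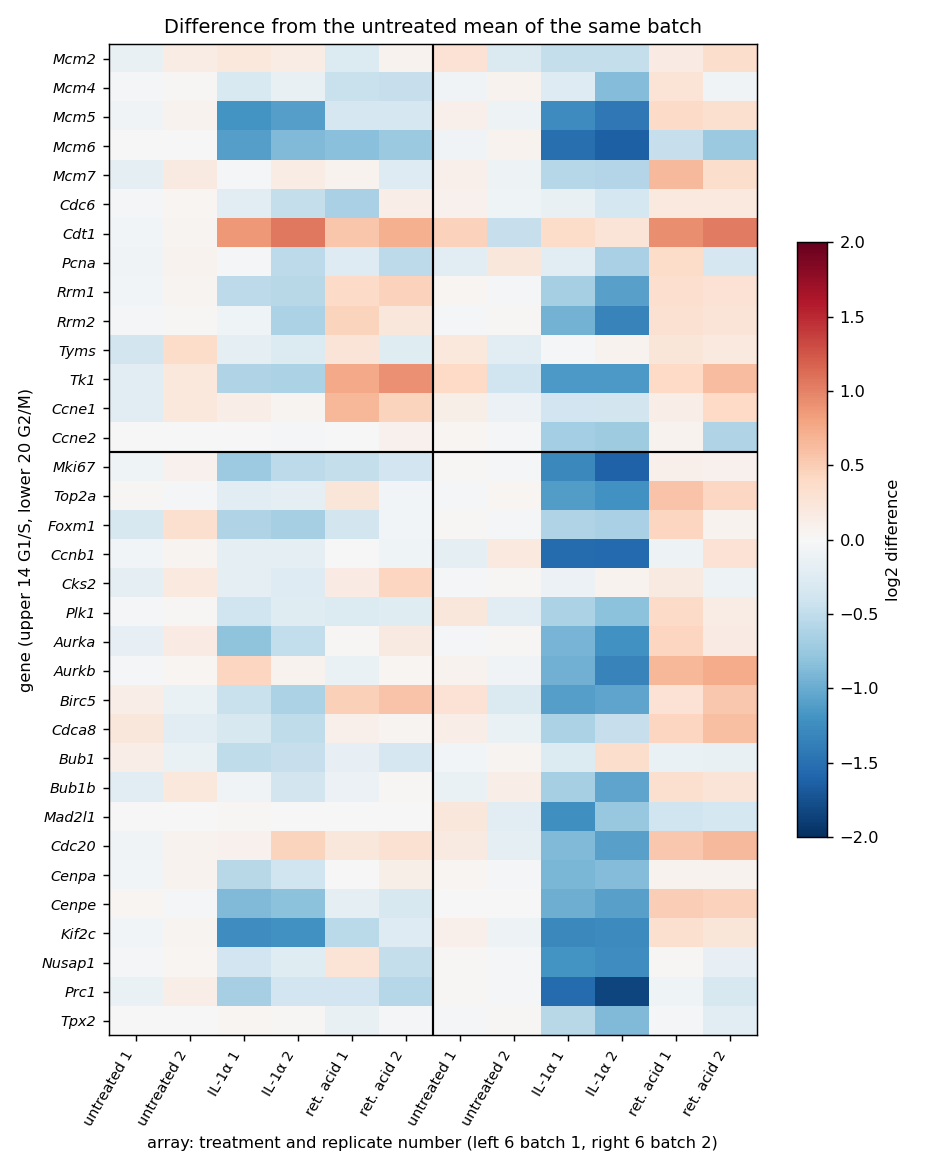
Difference in log2 intensity of each of the 34 tested genes (rows) from the mean of the untreated arrays of the same batch, on each array (columns; batch 1 left of the line, batch 2 right); red is higher and blue lower, and the horizontal line parts G1/S genes above from G2/M genes below. The IL-1α columns are blue over most rows and deeper in batch 2, whereas the retinoic acid columns of batch 2 are mostly pale or red.

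The treatments were then set against each other. This comparison shares its arrays with the others, so it adds no independent evidence. With retinoic acid 15 of 20 G2/M genes were higher than with IL-1α and 0 lower, against 16.1% and 16.4% of all tested genes, with a median difference of 0.77 (all genes -0.03). Of the G1/S genes 6 of 14 were higher (Mcm5, Mcm6, Rrm1, Rrm2, Tk1 and Ccne1) and 0 lower, with a median of 0.36. All 34 differences were above 0. Among them Ccne1, Ccnb1, Foxm1, Ccne2 and Cks2 were detected on no IL-1α array, so their direction was set in advance. Of these, Ccne1, Ccnb1 and Foxm1 were among the calls.

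At an unadjusted p under 0.05, 0 members of either class were lower (limma). Tk1 was the member with the largest difference, 2.94-fold (log2 fold change 1.56, SE 0.17, adjusted p = 1.17e-05), with retinoic acid arrays from 7.42 to 8.30 and IL-1α arrays from 5.87 to 6.78. Birc5 followed at 1.28 (SE 0.16, adjusted p = 4.28e-05), then Mcm5 at 1.25 (SE 0.17, adjusted p = 6.67e-05), Kif2c at 1.19 (SE 0.16, adjusted p = 6.57e-05), Rrm1 at 1.08 (SE 0.12, adjusted p = 1.49e-05) and Aurka at 1.06 (SE 0.14, adjusted p = 6.86e-05). In these 6 genes no retinoic acid array overlapped an IL-1α array. The retinoic acid arrays of Kif2c read 6.49, 6.78, 6.50 and 6.41, those of Aurka 7.18, 7.32, 7.41 and 7.15 and those of Cenpe 7.56, 7.43, 7.82 and 7.79. Cenpe and Rrm2 each differed by 1.05, also without overlap. Prc1 was 8.22, 8.03, 9.06 and 8.84 with retinoic acid (log2 fold change 0.77, SE 0.24, adjusted p = 0.0284), where batch 1 overlapped the IL-1α range. Mcm6 was higher by 0.59 (SE 0.16, adjusted p = 0.0121), but its second probe did not pass (0.48, adjusted p = 0.12). Ccne1 was detected on all retinoic acid arrays and on 0 IL-1α arrays, and was at least 1.22-fold higher. For Ccnb1 and Foxm1 the bounds were 1.29-fold and 1.06-fold. Aurkb was 4.50, 4.66, 6.81 and 6.89 with retinoic acid and did not pass over both batches (log2 fold change 0.78, SE 0.33, adjusted p = 0.0923). The other members that did not pass were Mcm2, Mcm4, Mcm7, Pcna, Tyms, Cdc6, Cdt1 and Ccne2 of the G1/S class and Bub1, Mad2l1, Tpx2 and Cks2 of the G2/M class, although the second probe of Mcm7 was called (1.00). The 15 G2/M calls became 9 without IL-1α batch 2 replicate 1 or 2 or retinoic acid batch 2 replicate 1, and 6 with treatment alone in the model.

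The batches differed in level for many of all tested genes, and for many members among them. Of the G1/S genes 4 were higher and 4 lower in batch 2, and of the G2/M genes 7 were higher and 7 lower, against 29.7% higher and 46.3% lower over all tested genes. Among those called higher, Ccne2, Ccnb1, Aurkb, Mad2l1 and Tpx2 were detected in batch 2 only, so their direction was set in advance. Nusap1 was higher by 1.73 (SE 0.16, adjusted p = 7.17e-08), Top2a by 1.18 (SE 0.17, adjusted p = 1.15e-05), Mcm7 by 1.17 (SE 0.16, adjusted p = 8.16e-06) and Tyms by 1.16 (SE 0.13, adjusted p = 9.35e-07). The second kept probe of Mcm7 went the other way, at 7.54, 7.34, 5.96 and 5.77 on the untreated arrays (batch 1 first). The batch difference of Mcm7 thus depends on the probe. Tpx2, Ccnb1, Aurkb and Mad2l1, which batch 1 did not detect, were at least 1.72-fold, 1.57-fold, 1.55-fold and 1.18-fold higher. Among the genes lower in batch 2, the difference was -0.92 for Cdca8, -0.66 for Tk1, -0.65 for Kif2c and -0.63 for Rrm1. On the untreated arrays the dimmer second probe of Cdca8 was higher in batch 2, at 4.84, 4.98, 5.80 and 5.41 (batch 1 first). Mki67 differed by 0.17 (SE 0.17, adjusted p = 0.378) and Plk1 by -0.07 (SE 0.14, adjusted p = 0.634). The mouse line and the number of detected probes differ with the batch, and their parts in these differences cannot be told apart.

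The falls with IL-1α were deeper in batch 2 for part of the G2/M genes. The median log2 fold change of the G2/M genes with IL-1α was -0.37 in batch 1 and -1.02 in batch 2, and that of the G1/S genes -0.25 and -0.57. Ccnb1, Aurkb, Mad2l1, Tpx2 and Ccne2 were undetected in batch 1. The batch 1 medians therefore include unmeasured effects, and the medians of the batches are not like for like. A test of the difference in effect, with treatment by batch in the model, called 7 of the 34 members, Mki67, Top2a, Ccnb1, Aurkb, Cdc20, Mad2l1 and Prc1, all G2/M genes and all with the lower value in batch 2, against 4.57% of all tested genes. Mki67 had a log2 fold change of -0.62 in batch 1 and -1.45 in batch 2 (difference -0.83, adjusted p = 0.0404 from limma). Prc1 had -0.52 and -1.69, and Top2a -0.20 and -1.17. Cdc20 went from 0.27 to -0.99, the only pair of these that crossed 0 among genes detected in both batches. For Ccnb1, Aurkb and Mad2l1 batch 1 gave no measured effect, since neither group was detected there.

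Other falls were present in each batch. The log2 fold change of Mcm5 was -1.15 in batch 1 and -1.34 in batch 2, and that of Cenpe -0.85 and -1.04, though a test that misses its threshold does not show equal effects. For retinoic acid against untreated the test called 0 of the 34 members, against 2.70% of all genes (limma; 7 members at an unadjusted p under 0.05, and 1 or 2 members at an adjusted p under 0.05 under 5 of the alternatives). For retinoic acid against IL-1α it called 17, 5 of the G1/S class (Mcm2, Mcm4, Mcm5, Mcm6 and Mcm7) and 12 of the G2/M class, against 8.91% of all genes, and each had the larger difference in batch 2. The call of Mcm7 depends on the probe. Its second kept probe gave 0.98 in batch 1 and 1.01 in batch 2 and was not called. The median difference of the G2/M genes was 0.22 in batch 1 and 1.26 in batch 2. The batch 1 value includes Ccnb1, Aurkb, Mad2l1, Tpx2 and Foxm1, which neither treatment detected there. In batch 1 the treatments were close for Mki67 (0.19), Plk1 (0.06) and Cdc20 (0.00), whereas in batch 2 they were apart by 1.55, 0.99 and 1.58. The count of 7 for IL-1α fell to 2 without IL-1α batch 1 replicate 2, to 3 without untreated batch 1 replicate 1 or IL-1α batch 2 replicate 2, and to 4 without untreated batch 2 replicate 1, IL-1α batch 1 replicate 1 or either retinoic acid array of batch 2. The count of 17 fell to 7 without retinoic acid batch 2 replicate 1, to 8 without IL-1α batch 2 replicate 2, to 9 without any 1 of the batch 1 arrays of either treatment and to 10 without retinoic acid batch 2 replicate 2.

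**Figure D4:**
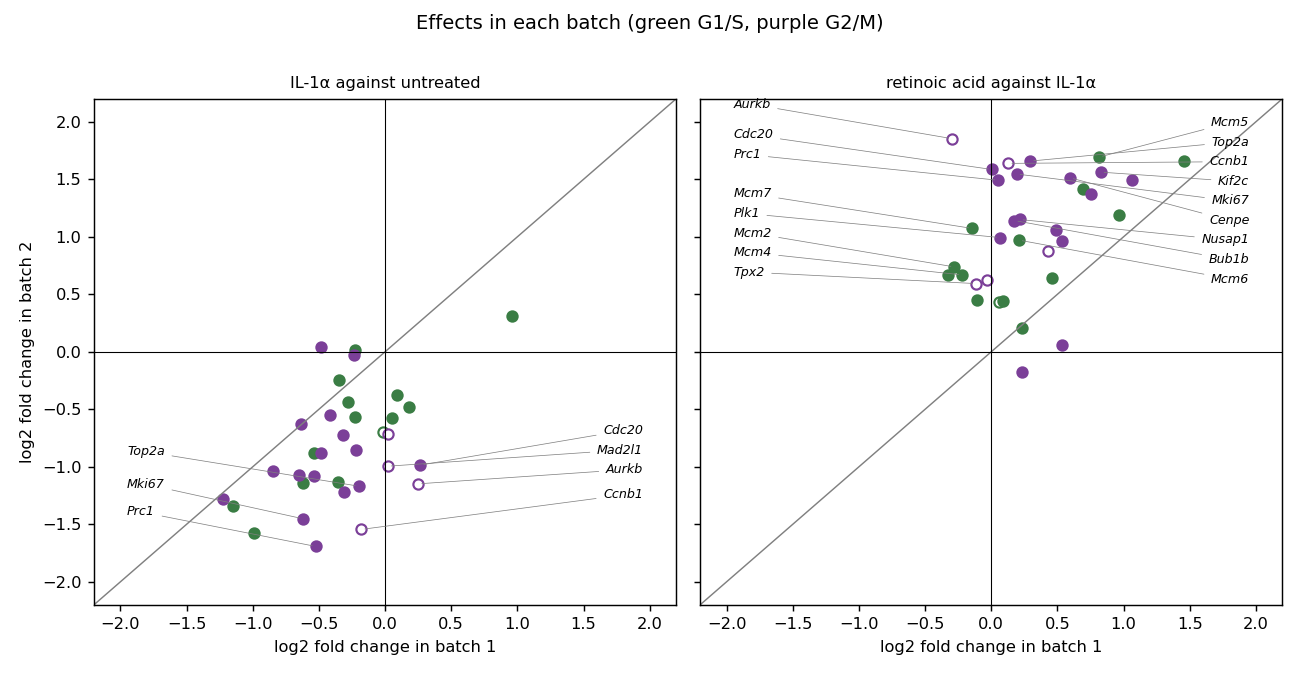
Log2 fold changes in batch 1 (x axis) and batch 2 (y axis) for the 34 tested genes, for IL-1α against untreated (left) and retinoic acid against IL-1α (right), G1/S in green and G2/M in purple; open circles were undetected in batch 1 in both groups, the grey line marks equal effects, and named genes passed the test of a difference between the batches. On the left 29 of 34 points lie below the line, and on the right 3 do. Open circles are among the 34 points, although batch 1 gave no measured effect for them.

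Genes that act upstream of these classes were taken from further lists. The D cyclins, which answer to growth signals and free E2F by way of Cdk4 and Cdk6, were 6 genes with their kinases, all tested. With IL-1α 0 rose and 2 fell, Ccnd1 and Ccnd2, beside 15.1% and 15.0% of all tested genes. Ccnd1 was 11.23, 11.17, 11.15 and 10.96 untreated, 10.44, 10.36, 9.66 and 9.58 with IL-1α and 10.62, 10.65, 10.71 and 10.83 with retinoic acid, a fall of 1.12 (SE 0.17, adjusted p = 0.000341) with IL-1α and a difference of -0.42 (SE 0.17, adjusted p = 0.0682) with retinoic acid. Ccnd2 fell with both, by 0.87 (SE 0.16, adjusted p = 0.00164) and by 1.46 (SE 0.16, adjusted p = 1.49e-05). With retinoic acid Cdk4 rose by 0.67 (SE 0.12, adjusted p = 0.000565) and Ccnd2 alone fell, beside 18.6% and 18.1% of all tested genes.

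Of the 7 inhibitors of cyclin-dependent kinases, 2 rose and 1 fell with IL-1α (all genes 15.1% and 15.0%), and 3 rose and 1 fell with retinoic acid (all genes 18.6% and 18.1%). Cdkn1a, which encodes p21, was 10.38, 10.45, 11.27 and 11.07 untreated, 12.67, 12.77, 12.51 and 12.52 with IL-1α and 10.94, 10.91, 12.16 and 12.18 with retinoic acid. It was raised 3.54-fold by IL-1α (log2 fold change 1.82, SE 0.23, adjusted p = 9.27e-05), with all IL-1α arrays above all untreated arrays, and by 0.75 (SE 0.23, adjusted p = 0.0224) on the log2 scale with retinoic acid. Cdkn2b, the p15 inhibitor of Cdk4 and Cdk6, stood at 7.61, 7.58, 7.63 and 7.60 untreated and at 9.44, 9.50, 10.30 and 10.34 with retinoic acid, a 4.91-fold rise (log2 fold change 2.29, SE 0.23, adjusted p = 4.54e-06), and at 7.87, 7.81, 7.17 and 7.35 with IL-1α (log2 fold change -0.05, SE 0.23, adjusted p = 0.89). Cdkn1c, the p57 inhibitor, rose with retinoic acid by 1.05 (SE 0.13, adjusted p = 2.95e-05) and fell with IL-1α by 0.78 (SE 0.13, adjusted p = 0.0006).

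**Figure D5:**
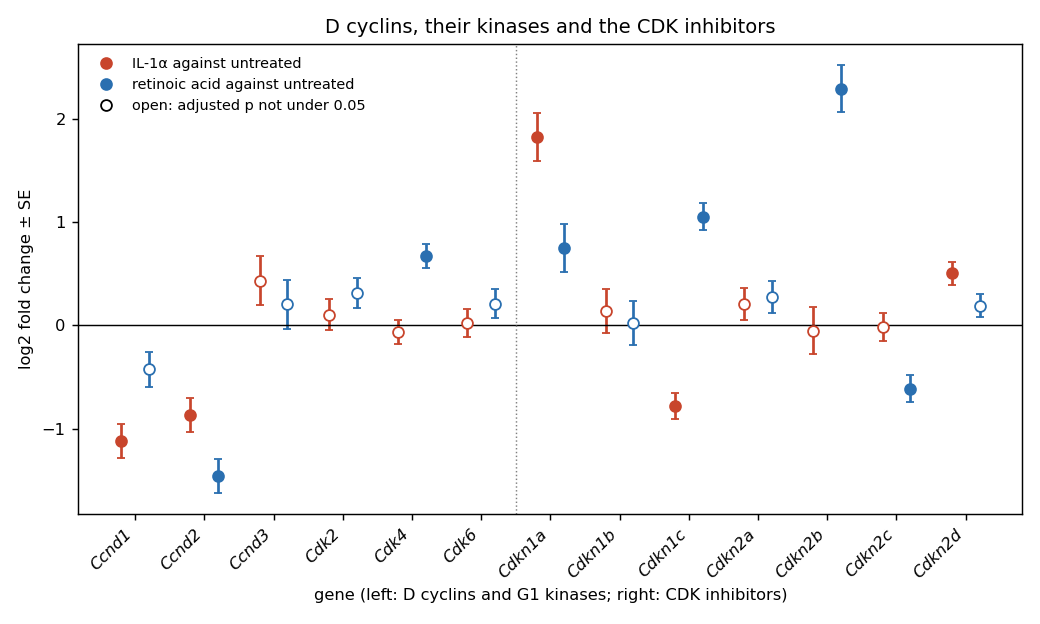
Log2 fold changes (y axis, points with bars of 1 SE) of the D cyclins and their kinases (left of the dotted line) and of the inhibitors of cyclin-dependent kinases (right) with IL-1α (red) and retinoic acid (blue) against untreated; open points did not pass an adjusted p of 0.05. Cdkn1a stands at 1.82 with IL-1α and Cdkn2b at 2.29 with retinoic acid.

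The mitotic kinase and its regulators, 6 of 8 tested, gave 1 rise and 1 fall with IL-1α, beside 15.1% and 15.0% of all tested genes. Cdc2a, the older symbol of Cdk1, fell by 0.62 (SE 0.20, adjusted p = 0.0313) and Cdc25b rose by 0.40 (SE 0.14, adjusted p = 0.0494), and Cdc25a rose with retinoic acid by 0.92 (SE 0.23, adjusted p = 0.00746). Of 16 E2F and RB genes 9 were tested, and with IL-1α E2f3 and Rb1 rose and Tfdp2 fell (all genes 15.1% and 15.0%). E2f7, E2f8 and Mybl2, which encodes B-Myb, were below detection on the 12 arrays.

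A wider set of 39 genes of origin licensing and the replication fork, 33 of them tested, was counted beside the members. With IL-1α 8 fell and 0 rose (median -0.19; all genes 15.0% and 15.1%). With retinoic acid 6 rose and 4 fell (median -0.06), shares no higher than the 18.6% and 18.1% of all genes. The largest falls with IL-1α were Uhrf1, which brings DNA methylation to new strands (log2 fold change -1.09, SE 0.23, adjusted p = 0.00363), and Lig1, the ligase that joins Okazaki fragments (log2 fold change -0.99, SE 0.16, adjusted p = 0.000473). Lig1 was 6.92, 7.24, 7.36 and 7.79 untreated, 5.87, 5.81, 6.95 and 6.73 with IL-1α and 7.76, 7.43, 8.47 and 8.52 with retinoic acid, and so rose with retinoic acid (log2 fold change 0.72, SE 0.16, adjusted p = 0.00279). Dut, which keeps uracil out of DNA, was detected on all retinoic acid arrays and on 0 IL-1α arrays, at least 2.44-fold higher with retinoic acid. The clamp loader gene Rfc3 rose with retinoic acid by 0.92 (SE 0.12, adjusted p = 7.86e-05).

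Known p53 targets, among which Cdkn1a was not counted here, had 9 of 11 genes tested. With IL-1α 6 rose and 1 fell (median 0.61; all genes 15.1% and 15.0%), led by Phlda3 (log2 fold change 1.60, SE 0.14, adjusted p = 4.36e-06) and Gadd45a (log2 fold change 1.11, SE 0.13, adjusted p = 3.49e-05), with Mdm2 at 0.85 (SE 0.16, adjusted p = 0.00159) and Sesn1 as the gene that fell. With retinoic acid 3 rose and 0 fell (median 0.28; all genes 18.6% and 18.1%), led by Gadd45a (log2 fold change 2.82, SE 0.13, adjusted p = 3.57e-09) and Trp53inp1 (log2 fold change 1.66, SE 0.19, adjusted p = 2.01e-05). No p53 activity was measured. Of the early genes of the growth factor response, 8 of 11 were tested. With IL-1α Egr1, Jun and Junb rose and Id3 fell (all genes 15.1% and 15.0%). Egr1, Jun, Junb and Id3 rose and Myc fell with retinoic acid (all genes 18.6% and 18.1%), Myc by 0.49 (SE 0.13, adjusted p = 0.0089).

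Markers of other cell types moved with the treatments, and their part in the member results was not tested. For comparison, 18.6% of all tested genes rose and 18.1% fell with retinoic acid, and 15.1% rose and 15.0% fell with IL-1α. Between the treatments 16.1% were higher with retinoic acid and 16.4% lower. Cartilage cell markers fell in 10 of 10 tested genes with retinoic acid (median -2.28) and in 8 of 10 with IL-1α (median -1.0). Between the treatments they were lower with retinoic acid in 10 of 10, where 15 of 20 G2/M genes were higher. The summed linear level of the cartilage cell markers was 78197 to 96701 on the untreated arrays, 45717 to 63960 with IL-1α and 15497 to 22409 with retinoic acid. Granulocyte precursor markers, such as Mpo and Ctsg, fell in 6 of 7 genes with retinoic acid (median -1.26) and in 0 of 7 with IL-1α (median 0.34; limma, 2 higher and 0 lower at an unadjusted p under 0.05). The fall with retinoic acid lay mostly in batch 1, with a median of -1.98 there and -0.32 in batch 2. Of the 7 effects 6 differed between the batches, against 2.70% of all tested genes. Their summed level in batch 1 was 8034 to 8982 untreated, 8353 to 8410 with IL-1α and 2600 to 2695 with retinoic acid. In batch 2 it was 3171 to 4173 untreated, 6350 to 6465 with IL-1α and 3226 to 3282 with retinoic acid. Of 5 tested erythroid markers, 0 were called with either treatment against untreated (limma, also 0 at an unadjusted p under 0.05), with medians of 0.35 with IL-1α and -0.13 with retinoic acid. The IL-1α median was 0.69 in batch 1 and 0.01 in batch 2. Between the treatments 2 of the 5 were lower with retinoic acid, with medians of -0.85 in batch 1 and 0.01 in batch 2. There 3 of the 5 effects differed between the batches, against 8.91% of all tested genes. Endothelial markers fell in 3 of 6 genes with IL-1α (summed level 1858 to 2388 untreated and 882 to 1239 with IL-1α), and macrophage markers rose in 2 and fell in 5 of 8 with IL-1α and rose in 5 with retinoic acid. Fibroblast and perichondrium markers fell in 4 of 5 genes with each treatment (medians -1.05 with IL-1α and -0.61 with retinoic acid), and markers of hypertrophic chondrocytes fell in 3 of 5 with each (medians -1.71 and -1.80), 1 rising with retinoic acid. Of the osteoblast markers 2 of 3 fell with each treatment and of the adipocyte markers 2 of 2.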

How the data were processed

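RNA of femoral head cartilage explants was measured on 12 Illumina bead arrays. The authors deposited, for each probe and array, a linear intensity that had been neither background-corrected nor normalized, and a detection score. The tool that summarised the beads is not given in the sources used here. The scores rose with intensity (Spearman 0.9956 to 0.9988), so 1 minus the score was used as detection p. The members and lists were chosen with earlier results of these data known.

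Background correction, quantile normalization and log2 were done by neqc with the detection p and offset 16 (limma 3.58.1, R 4.3.3). Of 46632 probes, the 18200 detected (p under 0.05) on 4 or more of the 12 arrays were kept, whichever the treatment. A gene was taken as its brightest kept probe. The model held treatment and a block of 4 levels, 1 for each replicate of each batch, as in the study's methods. Treatment by batch tested differences of effects, and treatment plus batch the level of the batches. Benjamini-Hochberg adjustment ran over all kept probes in limma, with a threshold of 0.05. Where a group did not detect a probe, a bound was given, the brighter group's mean over the dim group's mean after raising each of its arrays to at least the dimmest signal detected there. The deviations of same-numbered arrays correlated at 0.003 to 0.06 in batch 1. In batch 2 they correlated at -0.11 to 0.39, the highest between IL-1α and retinoic acid. These values do not settle whether the numbers pair samples. Arrays of a group and batch correlated at 0.983 to 0.995, and the number of arrays limits the precision. Genes were given with array values where they are Mki67, Top2a, Ccnb1, Pcna, Mcm2 or Ccne1, are among the 5 largest called changes of a class in a comparison, or differ most between batches; others were added for their role. The functions were tested on simulated data. Promoter sequences and symbols are RefSeq's for GRCm38.p6.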

Additional observations from a re-analysis of the deposited data

Results flagged for a closer look

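On 1 untreated array (batch 1 replicate 2) Aurka read 7.31, whereas the other 3 read 6.95 to 7.01. Its gap to the nearest of the others, as a share of the range of the 4, was above the critical value of Dixon's test. Of 57 groups of 4 arrays examined in this way 1 passed, and chance alone passes about 1 in 20 groups.

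Tests of a difference in effect between the batches gave the remaining results, each as the log2 fold change in batch 2 minus that in batch 1. With IL-1α against untreated they were -0.83 for Mki67, -0.97 for Top2a, -1.36 for Ccnb1, -1.40 for Aurkb, -1.25 for Cdc20, -1.01 for Mad2l1 and -1.17 for Prc1. The adjusted p-values from limma lay between 0.00486 (Aurkb) and 0.0404 (Mki67).

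With retinoic acid against IL-1α the Mcm genes gave 1.02 for Mcm2, 0.89 for Mcm4, 0.88 for Mcm5, 0.76 for Mcm6 and 1.22 for Mcm7. The second kept probe of Mcm7 gave 0.03 and was not called. Among mitotic regulators the values were 1.35 for Mki67, 1.36 for Top2a, 1.51 for Ccnb1, 0.97 for Bub1b, 0.93 for Plk1, 2.15 for Aurkb and 1.58 for Cdc20. Spindle and kinetochore genes gave 0.92 for Cenpe, 0.74 for Kif2c, 0.94 for Nusap1, 1.44 for Prc1 and 0.71 for Tpx2. The adjusted p-values from limma lay between 7.61e-05 (Aurkb) and 0.0495 (Tpx2). Ccnb1, Aurkb, Mad2l1 and Tpx2 were undetected on all batch 1 arrays, so that for them the difference is between a measured and an unmeasured effect. Both sets share the IL-1α arrays, and line, batch and depth of detection cannot be told apart.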

How the results depend on the processing

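Of 263 counts of calls under an alternative, 208 stayed within 1.5 times the count reported, and of 857 values of single called members 767 kept their call and 0 were reversed. Whether replicate numbers pair the samples was not settled. Without the replicate block (treatment plus batch) the calls (G1/S and G2/M) were 5 and 1 with retinoic acid and 6 and 14 with IL-1α, each against untreated. Between the treatments the calls were 6 and 15. With treatment alone they were 0 and 0, 2 and 5, and for G2/M genes in the last comparison 6. Scaling to one median moved the median of all genes for retinoic acid against untreated from 0.01 to 0.13 and gave 3 G1/S calls there, 5 G2/M calls for IL-1α and 13 effects of IL-1α that differed between the batches. Without a filter the calls for retinoic acid were 3 and 0, for IL-1α 7 (G2/M) and for retinoic acid against IL-1α 7 (G2/M). Requiring a fold change above 2 left 0 and 0 for retinoic acid, 2 and 3 for IL-1α, 4 G2/M genes for retinoic acid against IL-1α with 8 differing between batches, and 2 and 6 between the batches. Detection on all 12 arrays left 6 G2/M genes between the batches and 4 differing effects of IL-1α, also 4 with detection on at least 2 arrays of each batch, an alternative chosen after seeing the data. Effects of retinoic acid against untreated that differed between the batches numbered 1 with raw log2 intensity, 1 with normalization within batches, 1 with the mean of probes, 2 with offset 50 and 2 without a filter. Leaving out 1 array gave 3 to 5 and 0 to 1 calls for retinoic acid, 5 to 7 and 8 to 15 for IL-1α, 5 to 7 and 9 to 16 for retinoic acid against IL-1α, 6 to 9 and 11 to 15 between the batches, and 0, 2 to 10 and 7 to 17 differing effects. The cause of these changes was not tested, apart from the fewer genes or arrays that some alternatives leave. With 2 arrays per treatment and batch, and dim probes such as Ccnb1, Foxm1 and Ccne1 near background, small changes may be missed.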
